A study of Mus musculus with 6 samples.

Results

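The mRNAs of 10 enzymes and partner subunits that methylate tRNA and rRNA were followed in mouse neural stem cells (NSCs) after hypoxia/reoxygenation (H/R). The genes were Mettl1, Wdr4, Trmt61a, Trmt6, Trmt1, Nsun2, Nsun3, Nsun4, Nsun5 and Mettl5. They were chosen by name, with earlier results of these data known, from the 14643 gene symbols of the count table, and all 10 were found. Nsun4 stands on 2 lines of the table under different identifiers, so the 10 genes take up 11 of the 14665 lines. All 10 genes, and both Nsun4 lines, passed the filter on low counts. The cells were C17.2, an immortalized mouse NSC line, labelled wild type. The 3 control libraries came from cells kept in standard oxygen. The 3 H/R libraries came from cells held for 12 h in a gas mix with 5% oxygen, CO2 and N2 and returned to standard oxygen for 48 h. C17.2 is a single immortalized line, and no label says that replicates were grown separately, so each p reflects how these libraries vary, which may be technical.

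Transfer RNAs and ribosomal RNAs carry methyl groups on many bases, placed after transcription by enzymes that each recognize a few positions. In tRNA these marks stabilize the folded molecule, protect it from cleavage and tune decoding. In rRNA they sit near the functional centres of the ribosome, and mitochondria use enzymes of their own, encoded in the nucleus, for their tRNAs and rRNAs. Mettl1 with Wdr4 makes 7-methylguanosine in cytosolic tRNAs, and Trmt61a with Trmt6 makes 1-methyladenosine there. In each of these complexes the first-named subunit is catalytic and the second is needed for tRNA binding or for a stable, active enzyme. Trmt1 makes dimethylguanosine in tRNA. Nsun2 makes 5-methylcytosine in many cytosolic tRNAs, Nsun3 in mitochondrial methionine tRNA, Nsun4 in the small mitochondrial rRNA and Nsun5 in the large cytosolic rRNA. Mettl5 makes N6-methyladenosine in the small cytosolic rRNA, together with Trmt112. The libraries report mRNA and hold no measure of the methyl marks or of the proteins.

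The start regions of these genes were read for short motifs, so that the letters near their starts can be set side by side. RefSeq promoter windows on GRCm38.p6, from 250 bases before to 50 bases after a start, were found for 7 of the 10 genes in 8 windows, with no entry for Nsun5, Trmt1 and Trmt6. The sites below show the 2 E-boxes, 1 in a gene that fell after H/R and 1 in a gene that did not pass the test, and the CGCGAGA matches of Nsun3 and Nsun4. Capitals mark the motif, and each site is written in the direction of its gene.
Mettl1 (chr10:127041950-127041979, plus strand): agctcggctctcCACGTGgactgcgtggca
Trmt61a (chr12:111678118-111678147, plus strand): ccgccgtggagcCACGTGtggagccgggag
Nsun3, upstream match (chr16:62786823-62786852, minus strand): acctgagtctccCGCGAGAtttttgtctac
Nsun3, downstream match (chr16:62786800-62786829, minus strand): tgtctacaaTCTCGCGAGAccggaaacagg
Nsun4 (chr4:116053811-116053840, minus strand): cttcccggaaccCGCGAGAgcgcagctgca
The E-box CACGTG is the binding motif of MYC/MAX and other basic helix-loop-helix factors. It began 30 bases after the RefSeq start in Mettl1 and 25 bases after that in Trmt61a, and 7.15% of all 32851 mouse promoter windows held it. The annotated locus of Mettl1 begins at 127041414, upstream of its RefSeq window (127041682 to 127041981). The distance of 30 bases therefore holds for the RefSeq start only. CGCGAGA was in 2.56% of all windows and was chosen after the sequences had been read. In the downstream Nsun3 site it lies on both strands, overlapping to form the palindrome TCTCGCGAGA. CCAAT, present in 37.4% of all windows, was found in the windows of Nsun4 and Wdr4. TGATGNAA (an ATF4 motif, 3.97% of windows), the NRF1 motif (0.971%) and TTTCGCGC (an E2F motif, 0.323%) were searched on both strands too and had no match in the 8 windows. These are matches of letters and were not tested as binding sites.

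The gene counts summed to 7267809 to 8371882 per control library and to 15639751 to 16830389 per H/R library, so the H/R values rest on more reads. The same 5 of the 10 genes were lower when the H/R libraries were thinned to the median control total. Expression is given as CPM, the count of a gene divided by the scaled library total and set to a common size, with trimmed-mean (TMM) scaling factors that were 0.920 to 0.938 in the controls and 1.07 to 1.08 in H/R. Without the second line of Nsun4, the 10 genes took 0.0316% to 0.0354% of the unscaled control counts and 0.0318% to 0.0330% of the H/R counts. With TMM scaling they summed to 343 to 379 CPM per control library and 295 to 307 per H/R library. Of the NSC markers, Vim, Nes, Sox2 and Msi1 were detected and Pax6 was not in the table. Nes was higher after H/R (196 ± 16.3 CPM in controls and 331 ± 19.2 in H/R, SD, n = 3). Vim (log2 fold change 0.12), Sox2 (0.09) and Msi1 (-0.51) did not pass the test described below. The summed neuron markers (2 of 4 listed genes found) were at 73.1 to 80.9 CPM in controls and 32.6 to 36.4 in H/R. Nearly all of it was Map2, while Tubb3 stayed under 0.5 CPM in every library. Astrocyte (2 of 4 listed genes found), microglia (2 of 4) and endothelium markers (3 of 3) summed to 2.54 CPM or less in every library. Fibroblast markers summed to 3848 to 5280 CPM in controls and 3533 to 4581 in H/R, mostly Col1a1. Pdgfra was higher after H/R (11.6 ± 1.59 and 29.5 ± 1.74 CPM), while Col1a1 (log2 fold change -0.06) and Dcn (0.31) did not pass that test. The part of these marker shifts in the results below was not tested, and in bulk RNA fewer cells of a type and less RNA per cell cannot be told apart.

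After H/R, 5 of the 10 mRNAs fell and none rose. Mettl1, Nsun4, Nsun3, Trmt6 and Trmt1 were lower, with 41.9% to 70.0% of the control level left. Wdr4, Nsun2, Nsun5, Trmt61a and Mettl5 did not pass the test. None of the 10 was higher by DESeq2, by edgeR's exact test or at an unadjusted p under 0.05 either. The test was edgeR's two-sided quasi-likelihood test over all 11104 genes kept by the filter, with a Benjamini-Hochberg adjusted p under 0.05 as the threshold. Over those genes 19.0% were lower and 18.8% higher, and the median log2 fold change was 0.01, against -0.38 for the 10 genes. At the study's own thresholds (a 2-fold change or more with p under 0.05 before adjustment) Mettl1 and Nsun4 were lower and no gene was higher, where 5.37% of all genes were lower and 5.82% higher. Nsun4 was under the 2-fold limit with both of its lines summed (log2 fold change -0.86), without scaling factors (-0.85) and without control replicate 2 (-0.96). The 5 genes that fell had no overlap between groups, with H/R lower, as did 24.0% of all genes, and Nsun5 was the only 1 of the 10 with H/R above every control, as were 25.7% of all genes. Without scaling factors 3 of the 10 genes were lower (Mettl1, Nsun3 and Nsun4) and 1 was higher (Nsun5). That choice moved the median of all genes to 0.22 and put 74.4% of all calls on the higher side, against 49.7% with the factors.

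**Figure D1:**
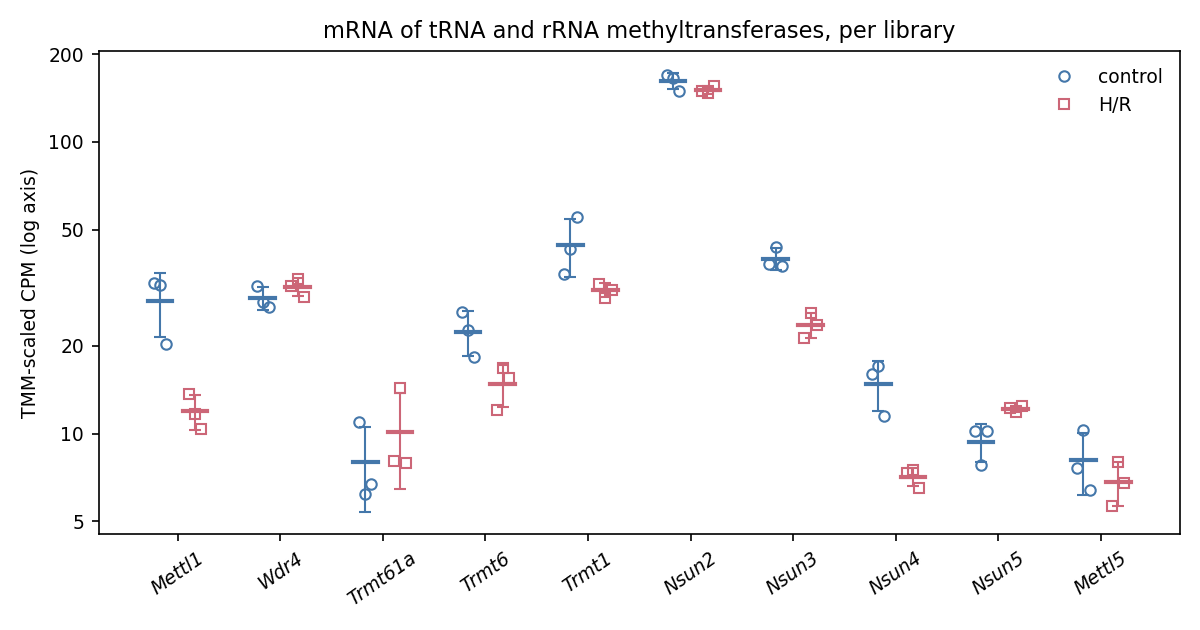
TMM-scaled CPM of each gene on a log axis, with open circles for the 3 control libraries, open squares for the 3 H/R libraries, a thick line at the mean and bars of 1 SD; for Nsun4 the line with the matched identifier is shown. Mettl1 lies between 20.4 and 32.9 CPM in controls and between 10.4 and 13.7 in H/R. Nsun2 stands at 150 to 170 CPM in controls and at 147 to 156 in H/R.

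Mettl1, the catalytic subunit of the tRNA 7-methylguanosine enzyme, had the largest change of the 10. It lies on the plus strand of chromosome 10 (mm10, 127041414 to 127046365). Its control libraries read 32.9, 32.2 and 20.4 CPM and its H/R libraries 13.7, 11.7 and 10.4 CPM. Every H/R value was below every control value, and control replicate 3 was the lowest of its group. The mean was 28.5 ± 7.04 CPM in controls and 11.9 ± 1.65 in H/R (SD, n = 3), a log2 fold change of -1.26 (SE 0.21, 95% interval -1.71 to -0.81, adjusted p = 0.00041). Wdr4, the partner that the catalytic subunit needs, is on the minus strand of chromosome 17 (31494322 to 31519980). Wdr4 read 32.1, 28.3 and 27.1 CPM in controls and 32.2, 33.9 and 29.4 in H/R. The groups overlapped, with means of 29.2 ± 2.61 and 31.8 ± 2.24 CPM, a log2 fold change of 0.12 and a 95% interval of -0.18 to 0.43 (adjusted p = 0.523).

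The balance of both subunits was also taken within each library, where it does not depend on the scaling. Counts were not divided by exon length, so the level of a ratio is not a ratio of molecules, and only its change is read. The ratio of Mettl1 to Wdr4 counts was 1.02, 1.14 and 0.751 in controls and 0.426, 0.346 and 0.354 in H/R. No H/R ratio reached a control ratio. How often the ratios of other gene pairs separate in this way was not tested. On the log2 scale the mean went from -0.06 ± 0.31 to -1.42 ± 0.16, a difference of -1.36, or 2.56-fold lower in H/R. The exact two-sided permutation test gave p = 0.1, the smallest that 3 libraries against 3 can give, and 0.1 after adjustment over the 2 ratios tested.

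**Figure D2:**
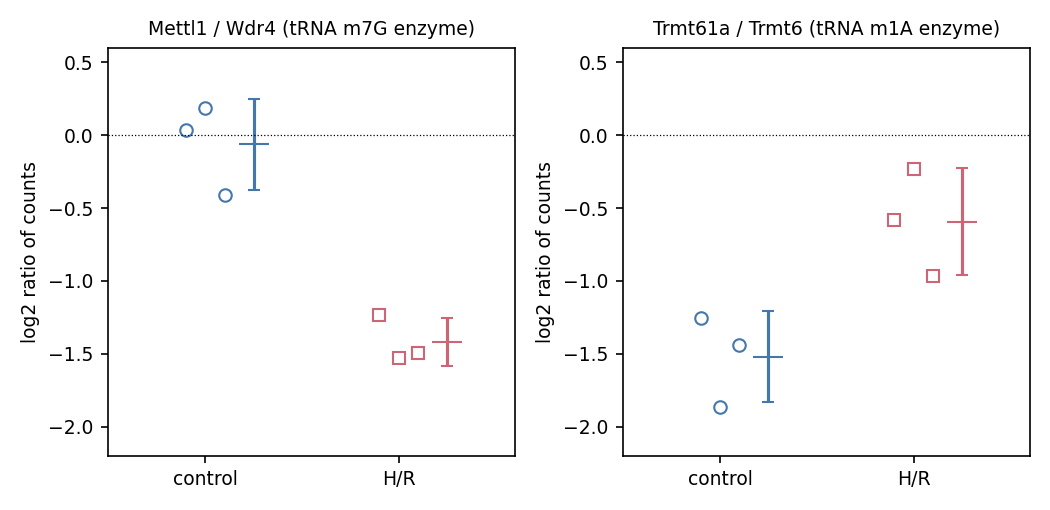
Log2 ratio of raw counts within each library for Mettl1 to Wdr4 (left) and Trmt61a to Trmt6 (right), with open symbols for single libraries and a dash with bars for the mean and SD of 3. The dotted line marks equal counts, without correction for exon length. The Mettl1 to Wdr4 ratio is lower in all 3 H/R libraries, and the Trmt61a to Trmt6 ratio is higher in all 3.

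In the tRNA 1-methyladenosine enzyme the non-catalytic subunit fell after H/R, and the catalytic subunit did not pass the test. Trmt6 lies on the minus strand of chromosome 2 (132804207 to 132816055). Its values were 26.2, 22.7 and 18.3 CPM in controls and 12.1, 16.8 and 15.5 in H/R. The groups did not overlap, but the lowest control and the highest H/R library were close. Trmt6 fell from 22.4 ± 3.96 to 14.8 ± 2.44 CPM, a log2 fold change of -0.60 (SE 0.20, 95% interval -1.02 to -0.17, adjusted p = 0.029). That call was lost when control replicate 1 or 2, or H/R replicate 1 or 3, was left out, with log2 fold changes of -0.47, -0.60, -0.47 and -0.63 in that order.

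Trmt61a, the catalytic subunit on the plus strand of chromosome 12 (111678105 to 111683902), did not pass the test. It read 11, 6.23 and 6.74 CPM in controls and 8.08, 14.3 and 7.94 in H/R. The groups overlapped, and H/R replicate 2 and control replicate 1 stood above the others of their groups. The means were 7.98 ± 2.59 and 10.1 ± 3.64 CPM, a log2 fold change of 0.34 with a 95% interval of -0.34 to 1.02 (adjusted p = 0.426), and of 0.01 without H/R replicate 2. The ratio of Trmt61a to Trmt6 counts was 0.419, 0.274 and 0.369 in controls and 0.668, 0.852 and 0.511 in H/R. Trmt6 thus had more counts than Trmt61a in every library. Every H/R ratio was above every control ratio, and here too the ratios of other gene pairs were not examined. The log2 means were -1.52 ± 0.31 and -0.59 ± 0.37, a difference of 0.93 or 1.9-fold (exact two-sided permutation p = 0.1, 0.1 adjusted over both ratios).

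Trmt1, the dimethylguanosine enzyme, lies on the plus strand of chromosome 8 (84686307 to 84699808). The control libraries read 35.2, 43.0 and 55.2 CPM and the H/R libraries 32.7, 29.3 and 31.2 CPM. The controls were spread widely and the H/R libraries narrowly, with no overlap. Trmt1 fell from 44.5 ± 10.1 to 31.0 ± 1.69 CPM, a log2 fold change of -0.52 (SE 0.16, 95% interval -0.86 to -0.17, adjusted p = 0.0228). The call was lost without control replicate 3 (-0.34), and without H/R replicate 1 (-0.55), 2 (-0.47) or 3 (-0.52). Nacc1 on the opposite strand overlaps Trmt1 by 1556 bp and Nfix lies 67 bp away. Nacc1 was at 33.3 ± 6.29 and 38.0 ± 2.79 CPM (adjusted p = 0.349), and Nfix rose from 76.9 ± 18.1 to 102 ± 11.2 CPM (log2 fold change 0.41, adjusted p = 0.0471). The groups overlapped for Nfix, with 97.6 CPM in control replicate 1 and 89.6 in H/R replicate 3. Since no source states whether strand was used in counting, reads of overlapping genes cannot be told apart.

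Nsun2, the main cytosolic 5-methylcytosine enzyme for tRNA, was the most abundant of the 10. It lies on the plus strand of chromosome 13 (69533746 to 69635780) and read 170, 166 and 150 CPM in controls and 149, 147 and 156 in H/R. The groups overlapped, at 162 ± 10.7 and 151 ± 4.58 CPM, with a log2 fold change of -0.10 and a 95% interval of -0.30 to 0.09 (adjusted p = 0.403). Without scaling factors its log2 fold change was 0.11, which is still below the median of all genes under that choice.

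Nsun3 and Nsun4, which act on mitochondrial RNAs, both fell. Nsun3, which acts on mitochondrial methionine tRNA, lies on the minus strand of chromosome 16 (62732444 to 62786818). It read 38.2, 43.6 and 37.6 CPM in controls and 21.3, 26.0 and 23.7 in H/R. The groups stood well apart, and the replicates of each were close to each other. The mean went from 39.8 ± 3.35 to 23.7 ± 2.31 CPM, a log2 fold change of -0.75 (SE 0.14, 95% interval -1.06 to -0.44, adjusted p = 0.00112), and the call held with any 1 library left out.

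Nsun4, the enzyme of the small mitochondrial rRNA that works with Mterf4, lies on the minus strand of chromosome 4 (116032842 to 116053876). The line with the identifier found in the annotation read 16.0, 17 and 11.5 CPM in controls and 7.31, 7.49 and 6.53 in H/R. The H/R values lay close together below all controls, with control replicate 3 the lowest of its group. The means were 14.8 ± 2.92 and 7.11 ± 0.509 CPM, a log2 fold change of -1.06 (SE 0.23, 95% interval -1.56 to -0.56, adjusted p = 0.0028). The second Nsun4 line, whose identifier has no entry in the annotation used here, read 3.09, 3.64 and 6.88 CPM in controls and 1.98, 3.57 and 5.24 in H/R, with overlap (log2 fold change -0.33, SE 0.46, adjusted p = 0.611). In control replicate 3, where the first line was lowest of the controls, the second line was highest. Both lines added gave 19.1, 20.7 and 18.4 CPM in controls and 9.29, 11.1 and 11.8 in H/R, a log2 fold change of -0.86 (SE 0.19, adjusted p = 0.00303). How the counting divided reads between the lines is not known, so the level of each line is uncertain, while the sum fell too. The mRNA of Mterf4, listed under its older name Mterfd2, was at 19.4 ± 4.15 and 21.3 ± 2.39 CPM and did not pass the test (log2 fold change 0.13, adjusted p = 0.619).

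Nsun5 and Mettl5, which act on cytosolic rRNA, did not pass the test. Nsun5, which acts on the large rRNA, lies on the plus strand of chromosome 5 (135369953 to 135376805) and read 10.2, 7.79 and 10.2 CPM in controls and 12.2, 11.9 and 12.4 in H/R. All H/R libraries were above all controls, at 12.2 ± 0.269 against 9.38 ± 1.38 CPM, but the log2 fold change of 0.38 had a 95% interval of -0.09 to 0.84 (adjusted p = 0.193). Without scaling factors Nsun5 was past the threshold, at 0.59 (adjusted p = 0.0402). Pom121, a nuclear pore protein gene on the other strand that overlaps Nsun5 by 665 bp, rose from 48.1 ± 0.89 to 69.2 ± 5.21 CPM (log2 fold change 0.52, adjusted p = 0.00223). The part of Pom121 reads in the Nsun5 counts was not tested.

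Mettl5, which acts on the small rRNA, lies on the minus strand of chromosome 2 (69871198 to 69885615) and had among the lowest counts, 43 to 79 per control library and 103 to 135 per H/R library. It read 7.60, 10.3 and 6.44 CPM in controls and 5.66, 8.02 and 6.77 in H/R, with overlap. The log2 fold change of -0.25 had a 95% interval of -0.87 to 0.36 (adjusted p = 0.518), which leaves room for a fall as large as that of Nsun3. Its partner Trmt112, which also serves other methyltransferases, was at 24.6 ± 4.50 and 25.1 ± 1.99 CPM (log2 fold change 0.03, adjusted p = 0.896). Ssb, the La protein gene that overlaps Mettl5 by 649 bp on the other strand, was at 160 ± 13.8 and 153 ± 11.4 CPM.

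**Figure D3:**
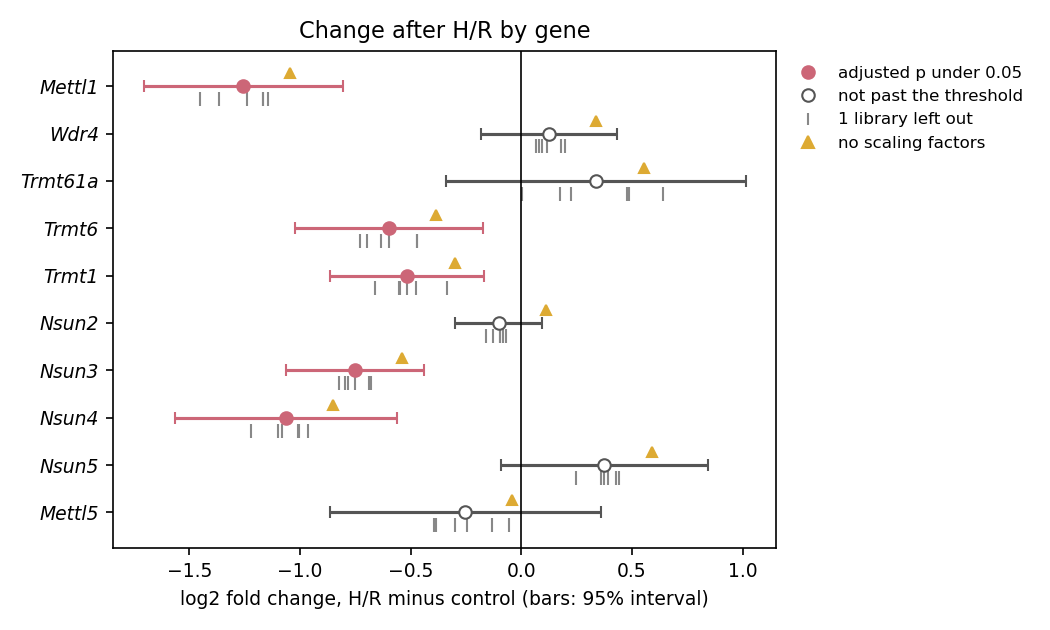
Log2 fold change of each gene, H/R minus control, with bars for the 95% interval of edgeR's quasi-likelihood fit; filled red points passed the threshold. Grey ticks under a point are the 6 fits with 1 library left out and the triangle is the fit without scaling factors. Mettl1, Nsun3 and Nsun4 keep to the left of 0 by the widest margin, and Trmt61a has the widest interval.

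Other coding genes touch these loci. Mettl21b, which overlaps Mettl1 by 100 bp, was at 2.51 ± 1.46 and 0.985 ± 0.649 CPM (adjusted p = 0.137), far below Mettl1 itself. Ndufv3, a respiratory complex I gene that lies 134 bp from Wdr4, fell from 83.6 ± 14.5 to 57.7 ± 2.30 CPM (log2 fold change -0.54, adjusted p = 0.00478), while Wdr4 did not pass the test. Mcm8, 85 bp from Trmt6, was at 8.22 ± 0.825 and 11.6 ± 2.24 CPM (log2 fold change 0.50, adjusted p = 0.122), on the other side of 0 from Trmt6. Papd7, which overlaps Nsun2 by 872 bp, had a log2 fold change of -0.02 (adjusted p = 0.908). Srd5a1, a steroid reductase gene on the other strand, overlaps the Nsun2 locus by 37994 bp. Srd5a1 was at 4.98 ± 0.606 and 7.60 ± 1.97 CPM, with every H/R library above every control, and did not pass the test (log2 fold change 0.61, adjusted p = 0.138).

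Per kilobase of exon the levels can be set in a rough order between genes. The length joins all annotated exons of a gene, which may differ from those in use or those counted. The SDs below hold the spread of libraries only, not this error. Nsun4 is given by the line with the matched identifier, without the second line. In controls Nsun2 was highest at 28.3 ± 1.86 CPM per kb, followed by Mettl1 (9.80 ± 2.42), Trmt1 (7.05 ± 1.6), Nsun3 (6.54 ± 0.551), Wdr4 (5.36 ± 0.479), Trmt6 (4.16 ± 0.736), Mettl5 (3.32 ± 0.804), Trmt61a (3.28 ± 1.07), Nsun4 (2.48 ± 0.487) and Nsun5 (2.17 ± 0.319). Nsun2 stood clear of Mettl1, and Nsun3 of Wdr4, by more than both SDs added together, and the other neighbours in this order did not. In H/R Nsun2 was again highest (26.3 ± 0.80), Wdr4 was next (5.85 ± 0.412) and Trmt1 the third (4.92 ± 0.268). Mettl1 was then at 4.11 ± 0.568 CPM per kb, about level with Trmt61a at 4.16 ± 1.5 and Nsun3 at 3.89 ± 0.380. Nsun5 (2.82 ± 0.0623), Mettl5 (2.80 ± 0.484) and Trmt6 (2.75 ± 0.453) lay together, and Nsun4 was lowest at 1.19 ± 0.0849. By the same measure Nsun2, Wdr4, Nsun3 and Trmt6 each stood clear of the next gene below, and the other neighbours did not.

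Related genes on 6 lists give the surroundings of these values, as counts only. Of 85 listed genes 78 were tested, and 6 were higher and 9 lower after H/R. Over all 11104 genes tested 18.8% were higher and 19.0% lower, in each direction a larger share than among the 78. Among the 33 tested methyltransferases of tRNA and rRNA other than the 10, 3 were higher and 3 lower. The 17 other tRNA methyltransferases had 2 higher, 3 lower and a median log2 fold change of -0.12. Trmt10a, which makes 1-methylguanosine in cytosolic tRNA, read 24.6, 47.5 and 30.8 CPM in controls and 8.25, 10.5 and 10.1 in H/R, a log2 fold change of -1.84 (SE 0.23, adjusted p = 4.77e-05). Its relative Trmt10b (-1.0, adjusted p = 0.0128) and Trdmt1, the Dnmt2 enzyme that makes 5-methylcytosine in tRNA (-0.95, adjusted p = 0.0212), were lower too. Trmt2a, a uridine methyltransferase of tRNA, rose from 45.2 ± 6.49 to 67.6 ± 0.539 CPM (0.58, adjusted p = 0.00234), and Trmt1l, the paralog of Trmt1, rose by 0.45 on the log2 scale (adjusted p = 0.0269) while Trmt1 fell. The calls of Trmt10a and Trmt2a held with any 1 library left out, and those of the other 3 did not. Trmt10b was lost without H/R replicate 2 or 3 or control replicate 2 (adjusted p up to 0.0592), Trdmt1 without any 1 of the H/R replicates or control replicate 2 (up to 0.0824) and Trmt1l without H/R replicate 1 or 3 or control replicate 2 or 3 (up to 0.113). Trdmt1 was also lost without scaling factors (-0.73, adjusted p = 0.0571).

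Of 8 other cytosolic rRNA methyltransferases 1 was higher and none lower (median 0.06). Also none of these was lower at an unadjusted p under 0.05, by DESeq2 or by edgeR's exact test, and the same held for the partner proteins below. It was Wbscr22, now named Bud23, which methylates the small rRNA together with Trmt112 and went from 8.77 ± 1.56 to 16.4 ± 2.69 CPM (log2 fold change 0.89, adjusted p = 0.00686). None of the 8 other mitochondrial methyltransferases passed the test in edgeR's quasi-likelihood fit (median 0.04). Of these, Mrm1 was at 14.5 ± 4.35 and 8.29 ± 3.36 CPM (adjusted p = 0.0673) and was the only 1 with an unadjusted p under 0.05. In 6 of the alternatives 1 gene of the list was lower. These were DESeq2, edgeR's exact test, length and GC offsets, no filter on low counts, and the fits without H/R replicate 2 or control replicate 1. Among 9 partner proteins 1 was higher and none lower (median 0.03). It was Wdr6, the partner of the ribose methyltransferase Ftsj1, which rose from 35.4 ± 5.54 to 68.7 ± 11.2 CPM (0.95, adjusted p = 0.000313).

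The 3 tested genes listed as tRNA demethylases had a median of -0.30. Alkbh7, better known as a mitochondrial protein of the AlkB family, was lower (-1.20, adjusted p = 0.04), but not when any 1 of the 3 H/R libraries or control replicate 2 or 3 was left out, nor without scaling factors (-0.99, adjusted p = 0.0765). Alkbh1, which removes the 1-methyladenosine that Trmt6 and Trmt61a make, had a log2 fold change of -0.30 (adjusted p = 0.0843). Without scaling factors it was at -0.08 (adjusted p = 0.628), and it passed the threshold, lower, with length and GC offsets and without H/R replicate 3 or control replicate 1. Alkbh3 had a log2 fold change of -0.07 (adjusted p = 0.78), or 0.15 without scaling factors. Of 33 genes for tRNA and rRNA modifications other than methylation, 2 were higher and 5 lower (median -0.15). Osgep, the catalytic subunit of the threonylcarbamoyl complex, fell by 0.85 (adjusted p = 0.00149), and the dihydrouridine synthases Dus3l (-0.93, adjusted p = 0.00357) and Dus4l (-1.0, adjusted p = 0.0115) fell too. Elp5 of the Elongator complex (0.43, adjusted p = 0.0166) and the pseudouridine synthase Pus7 (0.42, adjusted p = 0.0287) were higher. With any 1 library left out the calls of Wbscr22, Wdr6, Osgep and Dus3l held, Elp5 was lost without any 1 of the H/R replicates (adjusted p up to 0.0604), Pus7 without those or control replicate 2 or 3 (up to 0.0928), and Dus4l without H/R replicate 1 (0.0562). The count of 15 genes passing over all lists was 8 without H/R replicate 1, and 9 without H/R replicate 3 or without control replicate 2. Without control replicate 1, 2 partner proteins and 2 of the other cytosolic rRNA methyltransferases were higher, and without control replicate 3, 1 partner protein was lower. Without scaling factors 4 of the other tRNA methyltransferases and 4 of the other cytosolic rRNA methyltransferases were higher.

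**Figure D4:**
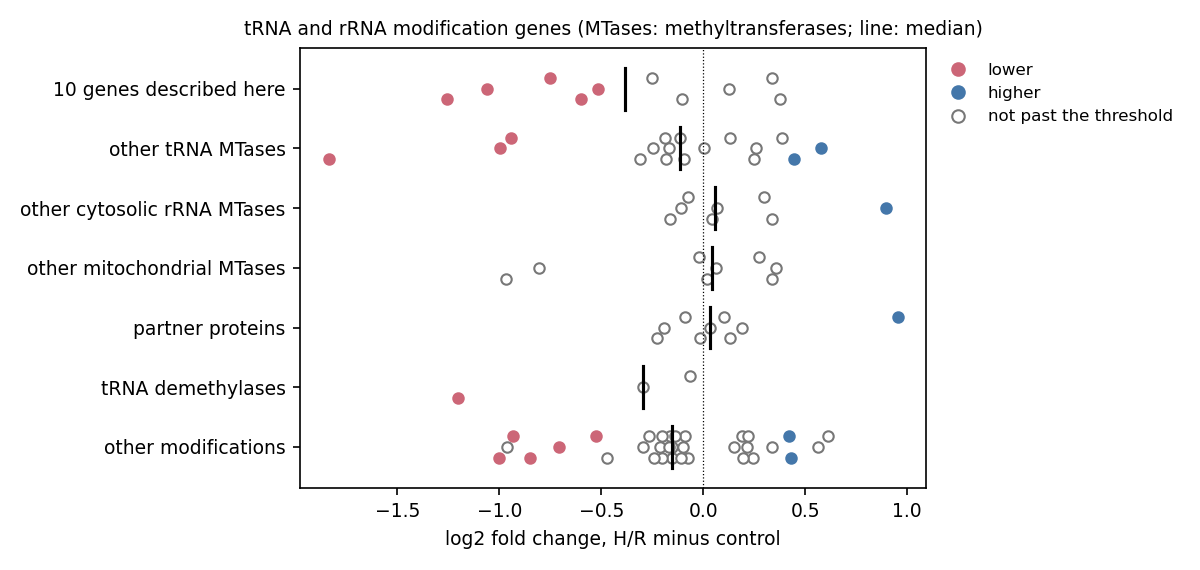
Log2 fold change, H/R minus control, of the 10 genes and of the tested genes of 6 lists, 1 point per gene, shifted up or down only to keep points apart. Red points were lower and blue points higher at an adjusted p under 0.05, open points did not pass, and black lines mark medians. The 10 genes have 5 red points and a median of -0.38.

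The table of long noncoding RNA held 36 transcripts at these loci, 32 on the strand of the gene and 4 opposite to Nsun2, and none at Trmt61a. Of the 36, 31 overlap exons of the coding gene in sense, so the same reads may stand in both tables, and no test was made. The 8 transcripts at Trmt1 summed to 69, 69 and 57 counts in controls and 112, 78 and 111 in H/R, or 8.80 ± 0.232 and 5.78 ± 1.01 CPM when scaled like the gene table. The 4 at Nsun4 were at 3.60 ± 0.711 and 2.48 ± 0.292 CPM. The single transcript at Mettl1 had 16, 24 and 13 counts in controls and 13, 22 and 26 in H/R (2.38 ± 0.645 and 1.18 ± 0.421 CPM). At Wdr4, 3 transcripts had 2, 4 and 0 counts in controls and 16, 11 and 17 in H/R (0.259 ± 0.260 and 0.845 ± 0.176 CPM). The mean of the same-strand transcripts was lower in H/R at every one of these loci except Wdr4. The libraries of both groups overlapped, however, at Mettl5, Nsun2, Nsun3, Nsun5 and Trmt6. Nsun5 transcripts were at 1.26 ± 0.855 and 0.879 ± 0.485 CPM, while its coding counts were higher in all H/R libraries. The direction over all long noncoding transcripts, scaled in the same way, was not tested, so these means show no fall particular to these loci. Of 2805 circular RNAs, 0 were assigned to any of the 10 genes.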

How the data were processed

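RNA from 3 control and 3 H/R samples of C17.2 cells was depleted of rRNA and sequenced as 150 bp pairs. The authors used cutadapt 1.9.3 for trimming, HISAT2 2.0.4 for alignment (mm10) and HTSeq 0.9.1 for counting, so the deposited gene values are raw counts. Strand setting and annotation release are not given in the sources used here. The lncRNA and circRNA tables (the latter from STAR 2.5.1b and DCC) also hold the authors' counts. The 18 other columns of values per sample were not used, nor were the authors' fold changes and p-values from edgeR 3.16.5.

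Counts were filtered with filterByExpr, scaled by TMM and compared with the two-sided quasi-likelihood test of edgeR 4.0.16 in R 4.3.3 over all 11104 genes kept, with Benjamini-Hochberg adjustment and no covariate. Replicates varied with a biological coefficient of variation of 0.144. Ratios of subunits were compared with an exact permutation test. Loci and exon lengths came from GENCODE vM21 (mm10), in which 14495 of 14665 identifiers were found, and promoters from RefSeq. Printed intervals come from the fit. Amplified reads lacked molecular identifiers and so cannot count single molecules. Alternatives were DESeq2 1.42.0, edgeR's exact test, other scalings and filters, length and GC offsets, H/R thinned to the median control depth, a replicate block, the study's thresholds and each library left out. Summing both Nsun4 lines was added after seeing the data. Named are all 10 genes, up to 3 genes of each list in either direction by smallest adjusted p, and whole lists of under 4 genes. Mrm1, Mterfd2, Trmt112, the genes beside the loci and the named cell markers were singled out after their values were seen. The 10 genes and the lists were chosen with earlier results of these data known. The result of 1 further marker list is not reported here.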

Additional observations from a re-analysis of the deposited data

How the results depend on the processing

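Mettl1, Nsun3 and Nsun4 passed the threshold, lower after H/R, in all 16 alternative fits, and Trmt1 and Trmt6 in 11 of the 16. Without scaling factors 3 of the 10 genes were lower and 1 was higher, with log2 fold changes of 0.59 for Nsun5, -0.30 for Trmt1 (adjusted p = 0.146), -0.39 for Trmt6 (adjusted p = 0.132) and 0.11 for Nsun2, which changed sign. At the study's thresholds 1242 of all genes, 2 of the 10 and 3 genes of the lists passed, in place of 4196, 5 and 15. With each library left out in turn, 3193 to 4574 genes passed, 3 to 4 of the 10 were lower and 0 higher, and 8 to 21 genes of the lists passed. Over the same fits the log2 fold change ran from -0.66 to -0.34 for Trmt1 (adjusted p 0.00182 to 0.0911) and from -0.73 to -0.47 for Trmt6 (adjusted p 0.0102 to 0.129), and the log2 difference from -1.53 to -1.23 for the Mettl1 to Wdr4 ratio and from 0.75 to 1.11 for the Trmt61a to Trmt6 ratio. The second Nsun4 line ran from -0.70 to 0.086 with each library left out and changed sign without control replicate 3. The cause of these shifts was not tested, except that fits with a library left out have fewer samples.

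Same-numbered replicates did not deviate together (correlations of 0.0406, -0.0113 and 0.0122). These values show no pairing by number, but they cannot exclude that same-numbered samples were handled together. With replicate number as a block 4037 genes passed and 5 of the 10 were lower, among them Trmt6 with an adjusted p of 0.0408, while Alkbh7 did not pass. Control libraries hold fewer reads, and Mettl5, Nsun5 and Trmt61a had 43 to 85 counts in them.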
